A study of Mus musculus with 12 samples.

Results

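The genes described here had more input RNA in both Miwi mutants than in Miwi +/- cells. They were chosen by their RPKM in the 3 input columns: a gene was taken if its log2(RPKM + 1) in the Miwi ADH/- input and in the Miwi -/- input was at least 1 above that of the Miwi +/- input. RPKM scales a gene's read number to 1 kilobase of gene length and to 1000000 reads of the library. Of the 20345 listed genes, the 12246 with at least 1 RPKM in at least 2 of the 6 columns were considered (the kept genes), 229 of them met the rule, and 227 remained after 2 genes that the rule names were left out. The filter on low values removed none, because a gene that meets the rule has at least 1 RPKM in both mutant inputs. The input values are therefore a description of how the genes were chosen, and no result rests on them. The immunoprecipitation (IP) columns took no part in the choice.

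The study sequenced RNA recovered with MIWI, and the input RNA it was taken from, after ribosomal RNA was removed, in mouse cells labelled late spermatocytes. The groups were IP and input of Miwi ADH/-, of Miwi -/- and of Miwi +/-, so every animal carried at least 1 changed Miwi allele and the control is a heterozygote, not a wild type. The labels give 2 samples for each of the 6 groups, but the deposited table has 1 column per group. No replicate values were therefore at hand, every difference is between single columns with no p-value and no replicate check, and genes described as 2-fold apart, always on the log2(RPKM + 1) scale, were counted by size alone. Per the labels' protocols RNA came from testes or from sorted cells, with no word on which sample was which. The sources used here give neither ages nor strains.

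MIWI is a PIWI-clade Argonaute protein of the male germ line. It is loaded with pachytene piRNAs, small RNAs that accumulate from the pachytene stage of meiosis to the round spermatid, and it can cut RNAs that its piRNA pairs with. In the ADH allele, from earlier studies, the catalytic site that makes this cut is mutated, so a Miwi ADH/- cell has MIWI protein from the mutant allele only, whereas Miwi -/- cells lack it and their IP shows what the antibody and beads recover without MIWI. Spermatogenesis in both mutants is known to stop at the round spermatid stage.

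Gene names, functions, chromosomes and sequences of the 227 genes are not given here. The table lists Ensembl gene IDs only, and 0 of the 49997 genes of the reference table used here carry one. The lists of testis cell type markers, pathways and promoter motifs that were drawn up, and the level of the targeted gene, which would check the genotype labels, therefore gave no values. The labelled cell type could not be checked against its markers for the same reason. Genes are described by level, by the reads behind it, by their IP columns and by length, and a few are named by ID.

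Read numbers differed between the columns. Totals inferred from the steps of the RPKM values were 10581229, 4172540 and 5887875 for the Miwi ADH/-, Miwi -/- and Miwi +/- IPs and between 5488630 and 7491509 for the inputs. Listed genes held 35.0%, 18.3% and 29.3% of the IP reads in the same order, and 47.9% to 53.7% of the input reads. For a gene of 1000 bases, 3 reads amount to 0.284 RPKM in the Miwi ADH/- IP and to 0.719 RPKM in the Miwi -/- IP. In bulk RNA such as this, fewer cells of a type and less RNA per cell cannot be told apart.

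The 227 genes stood at similar levels in both mutant inputs. Their median was 6.01 RPKM in the Miwi ADH/- input (quartiles 2.99 and 13.9, highest 308.2), 5.79 RPKM in the Miwi -/- input (quartiles 2.68 and 14.0, highest 298.3) and 0.982 RPKM in the Miwi +/- input (quartiles 0 and 4.07, highest 117). In the Miwi +/- input 58 of them were at 0. The median difference on the log2(RPKM + 1) scale was 1.45 for Miwi ADH/- minus Miwi +/-, with a range of 1.00 to 4.76, and 1.45 for Miwi -/- minus Miwi +/-, with a range of 1.00 to 3.91. On the RPKM scale, the 169 genes with reads in the Miwi +/- input were 3.94-fold higher in Miwi ADH/- and 3.77-fold higher in Miwi -/- at the median, and 66 of them were at least 4-fold higher in both. With the 58 genes at 0 placed at a floor of 3 reads in the Miwi +/- input, the medians over all 227 were 3.64-fold and 3.49-fold.

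Among all kept genes, 7.80% were at least 2-fold higher in the Miwi ADH/- input and 4.47% in the Miwi -/- input than in the Miwi +/- input, and 1.87% were so in both. The 229 genes that met the rule, counted before 2 were left out, are 24.0% of the 955 genes of the first list and 41.9% of the 547 of the second. Both lists are set against the same Miwi +/- input, so no weight is put on their overlap. Going the other way, 155 genes were at least 2-fold lower in both mutant inputs. Between the mutant inputs themselves, 10 of the 227 genes were at least 2-fold higher and 8 at least 2-fold lower in Miwi ADH/- than in Miwi -/-, where 12.6% of kept genes were higher and 6.54% lower. The genes split evenly in direction, 113 with more RPKM in Miwi ADH/- and 114 with more in Miwi -/-. Similar levels in the mutants follow in part from the rule, which asked for a difference in the same direction from one shared column.

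**Figure D1:**
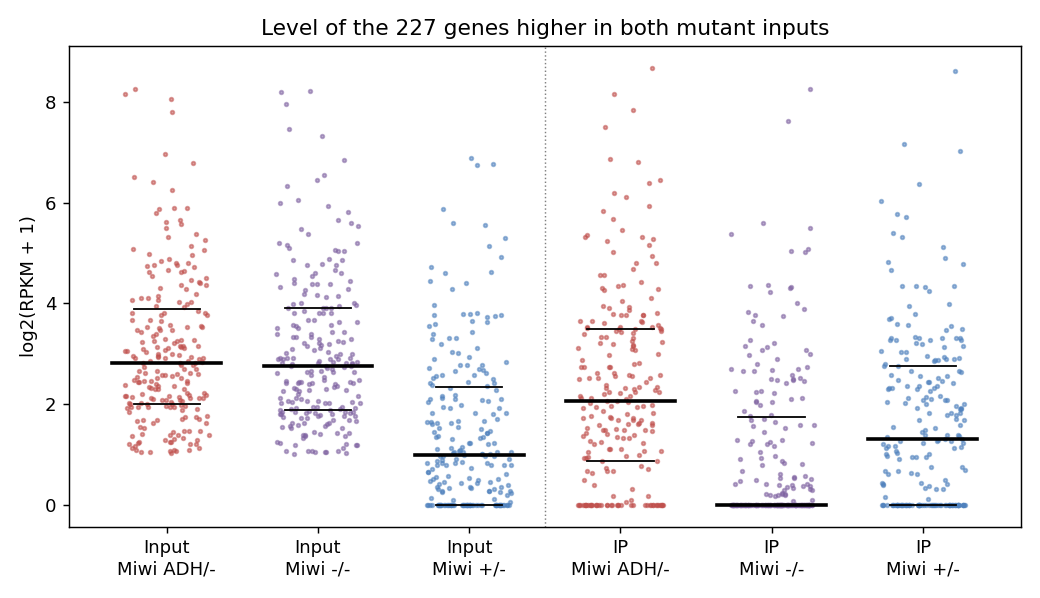
Levels of the 227 genes as log2(RPKM + 1) on the vertical axis in each of the 6 columns, 1 point per gene, with the median as a thick line and the quartiles as thin lines. Medians are 6.01, 5.79 and 0.982 RPKM in the Miwi ADH/-, Miwi -/- and Miwi +/- inputs, which chose the genes, and 3.20, 0 and 1.46 RPKM in the Miwi ADH/-, Miwi -/- and Miwi +/- IPs.

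Many of the genes rested on few reads. In the Miwi +/- input 58 had 0 reads, 77 had 1 to 9 and 92 had at least 10. The 58 genes at 0 there had a median of 6.5 reads in the Miwi ADH/- input (1 to 23) and of 7 in the Miwi -/- input (1 to 29). In all, 75 genes had fewer than 10 reads in at least 1 mutant input, whereas 110 had at least 20 reads in both, 70 at least 50 and 40 at least 100. Exact 95% intervals of the read ratio, which cover counting error only and compare these libraries, excluded equality for 190 genes in Miwi ADH/- against Miwi +/-, for 195 in Miwi -/- against Miwi +/- and for 181 in both. The other 46 genes met the size rule without a ratio that counting error alone sets apart from 1 in both inputs. These intervals, like those of the input ratios of named genes below, use the input columns that chose the genes. They do not cover that choice and are given as a description.

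The threshold cut through a dense range of values. The smaller of a gene's 2 input differences lay between 1 and 1.1 for 51 of the 227 genes, and 66 kept genes lay between 0.9 and 1. The 4 genes just inside had smaller differences of 1.0035 to 1.0070, with 1.09 to 6.60 RPKM in the Miwi ADH/- input, 1.005 to 8.43 RPKM in the Miwi -/- input and 0 to 2.79 RPKM in the Miwi +/- input. The 4 kept genes just outside had 0.9936 to 0.9986, with 1.70 to 19.9 RPKM in the Miwi ADH/- input, 1.79 to 17.2 RPKM in the Miwi -/- input and 0.357 to 8.13 RPKM in the Miwi +/- input.

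**Figure D2:**
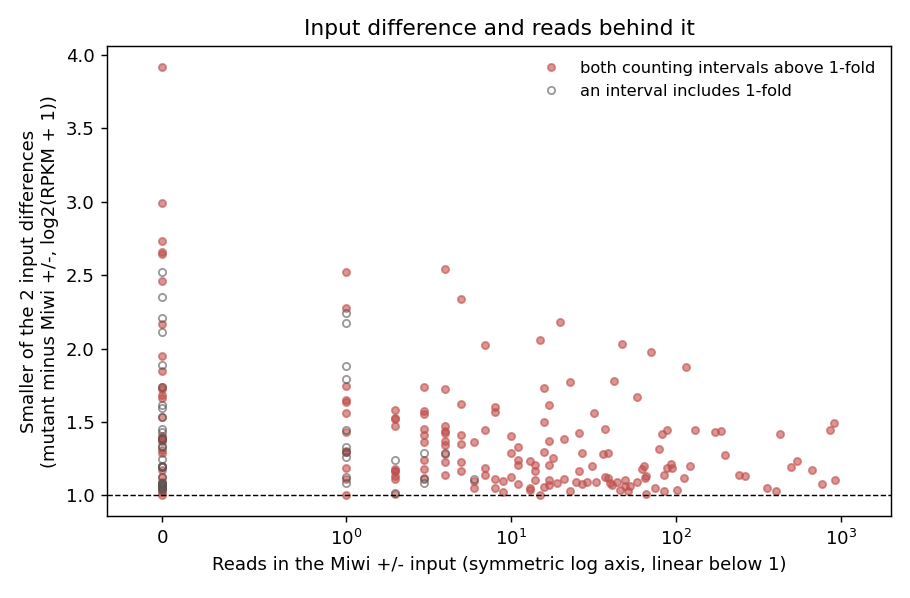
The smaller of the 2 input differences of each gene on the log2(RPKM + 1) scale (vertical axis) against its reads in the Miwi +/- input (horizontal axis, symmetric log), with filled points for the 181 genes whose counting intervals excluded equality in both mutants and open points for the other 46. The dashed line is the threshold of 1, and the open points reach no further than 6 reads in the Miwi +/- input. Both axes and the intervals rest on the inputs that chose the genes.

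By input difference, the genes furthest from Miwi +/- were at 0 there and short. ENSMUSG00000065878, of 70 bases, had 26.0 RPKM (10 reads) in the Miwi ADH/- input, 14.1 RPKM (7 reads) in the Miwi -/- input and 0 in the Miwi +/- input, which is at least 4.55-fold and at least 2.46-fold higher in the mutants against the floor of 3 reads. ENSMUSG00000066629, of 384 bases, had 8.54 RPKM (18 reads) in the Miwi ADH/- input, 6.97 RPKM (19 reads) in the Miwi -/- input and 0 in the Miwi +/- input, at least 8.19-fold and at least 6.68-fold. Its IP columns ran the other way, with 0.246 RPKM (1 read) in the Miwi ADH/- IP, 0 in the Miwi -/- IP and 4.87 RPKM (11 reads) in the Miwi +/- IP.

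By level, ENSMUSG00000062773 and ENSMUSG00000053453 led. ENSMUSG00000062773, of 1054 bases, had 308.2 RPKM in the Miwi ADH/- input, 298.3 RPKM in the Miwi -/- input and 108.8 RPKM in the Miwi +/- input. The ratios to Miwi +/- were 2.83 (95% counting interval 2.61 to 3.08) for Miwi ADH/- and 2.74 (2.53 to 2.97) for Miwi -/-. In the IPs it had 229.5 RPKM in Miwi ADH/-, 47.5 RPKM in Miwi -/- and 54.0 RPKM in Miwi +/-. The Miwi ADH/- IP thus stood 4.25-fold above the Miwi +/- IP (3.79 to 4.78), while the Miwi +/- IP was close in RPKM to the IP made without MIWI. The inputs behind these IPs differ. Over its own input, the IP stood at 0.745 in Miwi ADH/-, 0.159 in Miwi -/- and 0.496 in Miwi +/-. These ratios contain the inputs that chose the genes. ENSMUSG00000053453, of 883 bases, had 268.4, 248.4 and 117 RPKM in the Miwi ADH/-, Miwi -/- and Miwi +/- inputs. Its IPs held 110.7 RPKM in Miwi ADH/-, 19.0 RPKM in Miwi -/- and 51.4 RPKM in Miwi +/-, a ratio of 2.16 (1.88 to 2.48) between Miwi ADH/- and Miwi +/-. Both genes, with over 200 reads in each input and in the Miwi ADH/- and Miwi +/- IPs, had less RPKM in the IP than in the input of every genotype.

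Summed over the 227 genes, reads made up 0.884% of the listed reads of the Miwi ADH/- input (95% exact interval 0.873% to 0.896%), 0.809% of those of the Miwi -/- input (0.800% to 0.818%) and 0.279% of those of the Miwi +/- input (0.274% to 0.284%). In the IPs the shares were 1.11% in Miwi ADH/- (1.10% to 1.12%), 0.556% in Miwi -/- (0.539% to 0.573%) and 0.763% in Miwi +/- (0.750% to 0.776%). The order among the IPs was therefore Miwi ADH/-, Miwi +/-, Miwi -/-, and that among the inputs was Miwi ADH/-, Miwi -/-, Miwi +/-. The place of the Miwi +/- input below the mutant inputs was set by the choice of the genes, which the input intervals do not cover. The sums weigh each gene by its reads, so the shares and their intervals describe mainly the genes with most reads. ENSMUSG00000086635 was singled out after its values were seen because it had the most mutant input reads. It held 5104 of the 41163 reads in the Miwi ADH/- IP and 2004 of the 13162 in the Miwi +/- IP. The median gene had 21 and 8 reads there. Without ENSMUSG00000086635 the IP shares were 0.973% in Miwi ADH/-, 0.516% in Miwi -/- and 0.647% in Miwi +/-.

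The Miwi ADH/- IP held more of these genes' RNA than the Miwi +/- IP. The median level was 3.20 RPKM in the Miwi ADH/- IP (quartiles 0.816 and 10.2, highest 410.4) and 1.46 RPKM in the Miwi +/- IP (quartiles 0 and 5.78, highest 394). On the log2(RPKM + 1) scale the median difference, Miwi ADH/- minus Miwi +/-, was 0.59, against 0.21 over all kept genes. The input difference between the same genotypes, by which the genes were chosen, had a larger median of 1.45. Miwi ADH/- IP and input levels had a Spearman correlation of 0.727 in the 227 genes and 0.864 in kept genes. For the IP and input differences it was 0.039 and 0.349. The rule cut the input difference of the 227 genes at 1, while that of kept genes ran from -4.40 to 5.49. A narrower range alone can lower a correlation, so these values are not comparable. How much of the higher IP goes with the higher input was not tested. At least 2-fold higher in the Miwi ADH/- IP were 86 of the 227 genes (37.9%), where 18.0% of kept genes were, and at least 2-fold lower were 18 (7.93%), where 7.48% of kept genes were. The kept genes are longer, and the higher share among them falls with length. It was 31% under 300 bases, 31.2% from 300 to under 1000 bases and 17.6%, 10.7% and 5.63% in the longer classes. Part of the gap to 18.0% thus goes with length. Counting intervals excluded equality for 73 of the 86 and 16 of the 18. The difference lay above 0 for 149 of the 227 genes, below 0 for 48 and at 0 for 30. Of the 12246 kept genes, 7372 lay above 0, 4593 below 0 and 281 at 0.

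Among genes with more reads the difference between the MIWI IPs was wider. In the 92 genes with at least 10 reads in the Miwi +/- input, a split made after the data were seen, the median was 0.97, against 0.20 in the 11086 kept genes with as many reads. Of these 92 genes, 43 (46.7%) were at least 2-fold higher in the Miwi ADH/- IP, against 16.3% of the kept genes with as many reads, and 3 (3.26%, against 6.59%) were at least 2-fold lower. A difference above 0 was found in 77 of the 92, and in 6725 of the 11086 kept genes with as many reads. Similarly, the 144 genes with at least 5 RPKM in a mutant input had a median of 0.79 (0.26 in the 7849 kept genes at that level) and 64 of them (44.4%, against 17.3%) were at least 2-fold higher and 5 (3.47%, against 4.78%) at least 2-fold lower. The 83 genes under 5 RPKM in both mutant inputs had a median of 0.00, with 22 (26.5%) at least 2-fold higher and 13 (15.7%) at least 2-fold lower, where 19.1% and 12.3% of the kept genes at that level were. In the 58 genes at 0 in the Miwi +/- input the median was also 0.00, with 15 (25.9%) at least 2-fold higher and 10 (17.2%) at least 2-fold lower, beside 18.0% and 7.48% of all kept genes.

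ENSMUSG00000021486, of 1088 bases, had the largest positive IP difference among genes with at least 5 RPKM in either IP. It had 26.8 RPKM (309 reads) in the Miwi ADH/- IP, 0.881 RPKM (4 reads) in the Miwi -/- IP and 1.25 RPKM (8 reads) in the Miwi +/- IP, a ratio of 21.5 (10.8 to 50.2) between Miwi ADH/- and Miwi +/-. Its inputs stood at 20.1 RPKM in Miwi ADH/-, 32.5 RPKM in Miwi -/- and 5.15 RPKM in Miwi +/-. Next was ENSMUSG00000085102, of 226 bases, with 11.3 RPKM (27 reads) in the Miwi ADH/- IP and 0 in the Miwi -/- and Miwi +/- IPs, at least 5.01-fold higher in Miwi ADH/- than in Miwi +/- against the floor of 3 reads. It had 5.64 RPKM in the Miwi ADH/- input, 8.10 RPKM in the Miwi -/- input and 0 in the Miwi +/- input.

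The 2 lowest differences among genes with at least 5 RPKM in either IP were those of short genes with few reads. ENSMUSG00000077192, of 132 bases, had 0 in the Miwi ADH/- IP, 5.45 RPKM (3 reads) in the Miwi -/- IP and 24.5 RPKM (19 reads) in the Miwi +/- IP. Its place among the 227 genes rests on 4 reads in the Miwi ADH/- input and 1 in the Miwi -/- input, with 0 in the Miwi +/- input. ENSMUSG00000064851, of 151 bases, had 2.50 RPKM (4 reads) in the Miwi ADH/- IP, 12.7 RPKM (8 reads) in the Miwi -/- IP and 10.1 RPKM (9 reads) in the Miwi +/- IP. In RPKM the IP made without MIWI thus held as much as the Miwi +/- IP. Its inputs were unlike, with 13.05 RPKM in Miwi -/- and 0 in Miwi +/-. The ratio between the Miwi ADH/- and Miwi +/- IPs was 0.247 (0.0557 to 0.886).

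**Figure D3:**
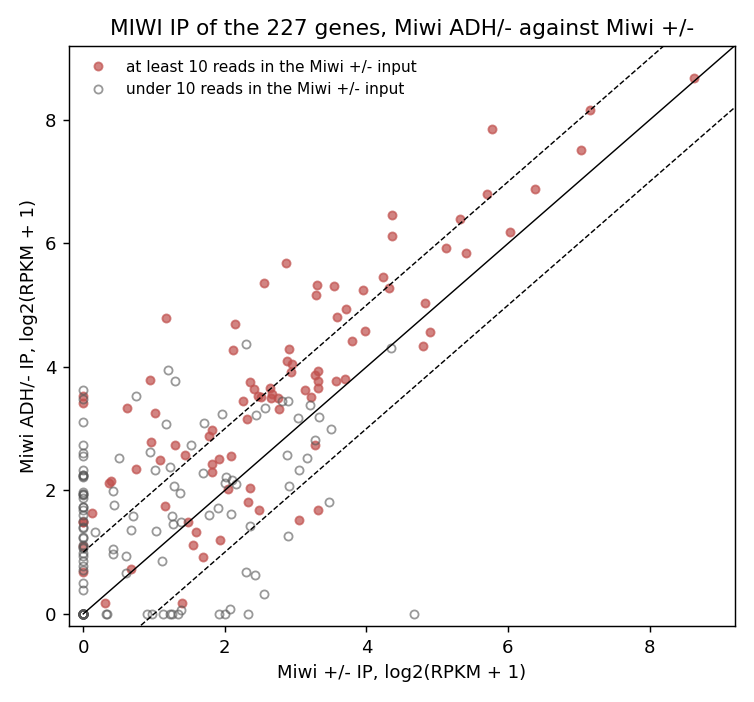
Each of the 227 genes by its level in the Miwi ADH/- IP (vertical axis) and in the Miwi +/- IP (horizontal axis), both as log2(RPKM + 1), with filled points for genes with at least 10 reads in the Miwi +/- input. The solid line marks equal levels and the dashed lines 2-fold differences: 86 genes lie on or above the upper dashed line and 18 on or below the lower one, 3 of them filled.

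A higher Miwi ADH/- IP was not limited to genes that were higher in both mutant inputs. The 726 genes at least 2-fold higher in the Miwi ADH/- input but not in the Miwi -/- input had a median IP difference of 1.18 between Miwi ADH/- and Miwi +/-, and 56.5% of them were at least 2-fold higher in the IP. For the 318 genes higher in the Miwi -/- input only, the median was 0.00, with 23.0% at least 2-fold higher. The 155 genes lower in both mutant inputs had a median of -0.01, with 31 genes at least 2-fold higher and 38 lower. The 227 genes thus lay between the first of these sets and the others.

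The Miwi -/- IP held the least. Its median level for the 227 genes was 0 RPKM (upper quartile 2.34, highest 306.4), with 115 genes at 0 (50.7%, against 23.7% of kept genes). At 0 in the Miwi ADH/- IP were 42 genes (18.5%, against 5.14%), and in the Miwi +/- IP 71 (31.3%, against 9.67%). The median difference of the Miwi -/- IP from the Miwi +/- IP was -0.36, against -0.77 over all kept genes. At least 2-fold lower were 82 of the 227 genes (36.1%), where 42.1% of kept genes were, and at least 2-fold higher were 18 (7.93%), where 5.37% of kept genes were. Both shares were near those of the kept genes. The sign of the median depends on the scale. It was 0.40 when measured from the median of all kept genes and 0.00 with median-of-ratios scaling. In the 92 genes with at least 10 reads in the Miwi +/- input the median was -0.90, against -0.82 in the kept genes with as many reads. The rule chose the 227 genes for a higher Miwi -/- input. Their median input difference, Miwi -/- minus Miwi +/-, was 1.45, against -0.02 over all kept genes. How far this enters the difference between these IPs was not tested.

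Set directly against the Miwi -/- IP, the Miwi ADH/- IP was at least 2-fold higher for 132 of the 227 genes (58.1%), where 51.8% of kept genes were, and at least 2-fold lower for 10 (4.41%), where 4.93% were. The median difference was 1.35, against 1.05 over the kept genes. Among the genes with at least 10 reads in the Miwi +/- input, 70 of 92 (76.1%) were at least 2-fold higher in the Miwi ADH/- IP compared with the Miwi -/- IP, against 52.3% of the kept genes with as many reads. Both the Miwi ADH/- IP and the Miwi +/- IP were at least 2-fold above the Miwi -/- IP for 64 of the 227 genes (28.2%) and for 33.6% of the kept genes. These comparisons share columns, so their values are given side by side only.

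By the column with the highest IP level, 141 of the 227 genes (62.1%) were highest in the Miwi ADH/- IP, 17 (7.49%) in the Miwi -/- IP and 43 (18.9%) in the Miwi +/- IP. Over all kept genes these shares were 54.9%, 11.4% and 31.9% in the same order. The remaining 26 genes (11.5%, against 1.76% of kept genes) were at 0 in all 3 IPs. They were short, at a median of 331.5 bases with 12 under 300 bases, and had a median of 11.5 reads over both mutant inputs. The 141 genes highest in the Miwi ADH/- IP were longer, with a median of 883 bases, and had a median of 90 reads over both mutant inputs, and 125 of them had at least 10 reads in that IP. Of the 43 genes highest in the Miwi +/- IP, 29 had at least 10 reads there, and of the 17 highest in the Miwi -/- IP, 11 did.

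Within each genotype, the IP is set against its own input. These differences contain the input columns that chose the genes, so a low Miwi +/- input raises the Miwi +/- value and high mutant inputs lower the mutant ones, and they are given as a description. The median IP minus input difference was -0.71 in Miwi ADH/- (-0.41 over kept genes), -2.03 in Miwi -/- (-1.37) and 0.00 in Miwi +/- (-0.77). At least 2-fold higher in the IP were 7 of the 227 genes in Miwi ADH/-, where 4.83% of kept genes were, 7 in Miwi -/-, where 3.67% were, and 55 in Miwi +/-, where 4.24% were. At least 2-fold lower in the IP were 92 genes in Miwi ADH/-, where 25.0% of kept genes were, 195 in Miwi -/-, where 60.9% were, and 33 in Miwi +/-, where 40.6% were. Relative to the median of all kept genes the 3 medians were -0.30 in Miwi ADH/-, -0.66 in Miwi -/- and 0.77 in Miwi +/-. In the 92 genes with at least 10 reads in the Miwi +/- input they were -0.60 in Miwi ADH/-, -2.58 in Miwi -/- and 0.01 in Miwi +/-, against -0.43, -1.45 and -0.83 in the kept genes with as many reads.

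Of the 55 genes that the Miwi +/- IP held at 2-fold or more over input, 49 had a counting interval that excluded equality, 41 had at least 10 reads in that IP, and 20 were at 0 in the Miwi +/- input. The rule favoured a low Miwi +/- input, so these intervals do not cover the choice and are no support for enrichment. A total of 43 were also at least 2-fold above the Miwi -/- IP. The 55 genes were picked by a high Miwi +/- IP, which enters this comparison too, so the number is raised by that choice. Without that choice the shares were 36.1% of the 227 genes and 42.1% of all kept genes, which are therefore no measure for the 43. The share among kept genes at 2-fold or more over input was not computed. ENSMUSG00000077192 and ENSMUSG00000064851, described above, had the largest positive differences on the log2(RPKM + 1) scale, 4.669 and 3.475. In RPKM they were at least 8.06-fold and at least 3.82-fold higher, against the floor of 3 reads in the input. Other genes had larger RPKM ratios, such as 42.9 (16.4 to 159.9) for a gene with 135 reads in the IP and 4 in the input. At the other end was ENSMUSG00000072978, of 318 bases, with 0 reads in the Miwi +/- IP and 5.88 RPKM (14 reads) in the Miwi +/- input. It was also low in the other IPs, with 0.594 RPKM (2 reads) in Miwi ADH/- and 0 in Miwi -/-, although the inputs held 14.9 RPKM in Miwi ADH/- and 18.2 RPKM in Miwi -/-. ENSMUSG00000028843, of 543 bases, had 0.938 RPKM (3 reads) in the Miwi +/- IP and 8.11 RPKM (33 reads) in its input, a ratio of 0.116 (0.0227 to 0.369). In Miwi ADH/- the same gene had 5.92 RPKM in the IP and 18.5 RPKM in the input.

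**Figure D4:**
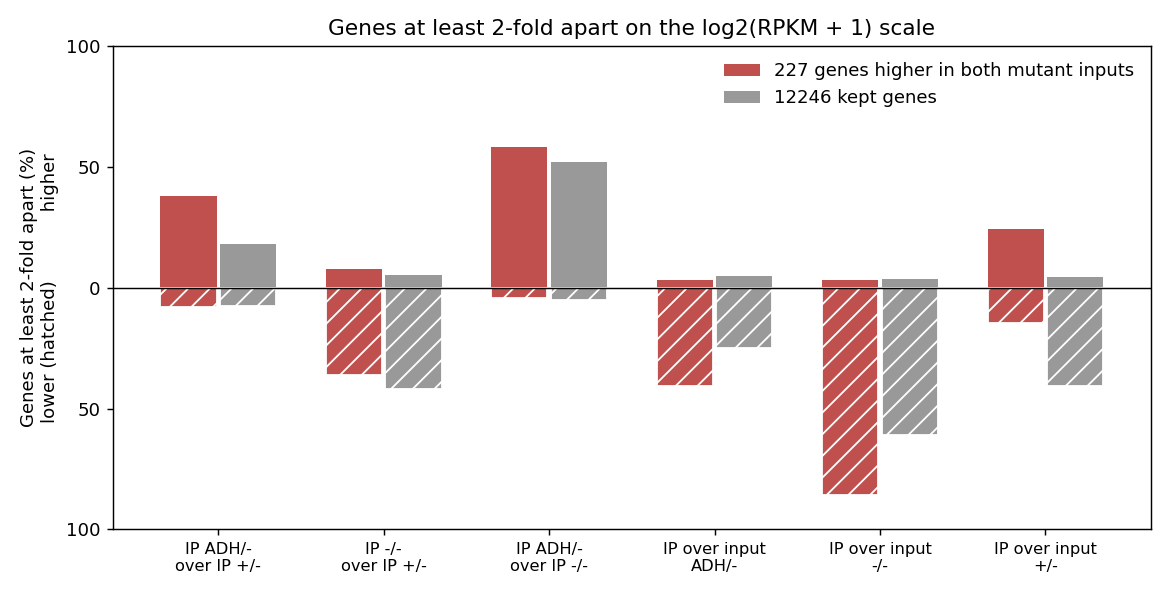
Shares of genes at least 2-fold higher (plain bars, upwards) and at least 2-fold lower (hatched bars, downwards) on the log2(RPKM + 1) scale, in percent, for the 227 genes beside the 12246 kept genes, in 3 comparisons between IPs and in the IP over input of each genotype. The Miwi ADH/- IP is at least 2-fold above the Miwi +/- IP for 37.9% of the 227 genes and 18.0% of kept genes, the Miwi -/- IP is at least 2-fold below the Miwi +/- IP for 36.1% and 42.1% on this scale, and the IP over input bars contain the inputs that chose the genes. The kept genes are longer and are not matched for length.

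The genes were short. Gene length, which the RPKM steps give, had a median of 734 bases (70 to 4680) against 1617 bases over the kept genes. The rule was set on RPKM, which divides reads by length, so a short gene meets it with fewer reads than a long one and the length of the set is in part fixed by the rule. Under 300 bases were 35 genes (15.4%, against 2.79% of kept genes), from 300 to under 1000 bases 105 (46.3%, against 22.4%) and from 1000 to under 2000 bases 64 (28.2%, against 37.1%). From 2000 to under 4000 bases there were 19 (8.37%, against 29.4%), and 4 of at least 4000 bases (1.76%, against 8.27%). Put the other way, the 227 genes made up 10.2% of the kept genes under 300 bases, 3.83% and 1.41% of the next longer classes, 0.527% of those of 2000 to under 4000 bases and 0.395% of the longest.

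Length moved together with reads. The 35 genes under 300 bases had a median of 4 reads in the Miwi ADH/- input, 6 in the Miwi -/- input and 0 in the Miwi +/- input, where 19 of them were at 0. The 19 genes of 2000 to under 4000 bases had medians of 128, 195 and 66 reads in the same columns and none at 0 in the Miwi +/- input. The genes at 0 in the Miwi +/- input had a median length of 383 bases, and those with reads there 867.1 bases. How much of the difference in length comes from the rule was not tested. The difference in length is smaller among genes with reads in at least 5 columns: there the median was 1067 bases for 138 of the 227 genes (60.8%), against 1749 bases for 10822 of the kept genes (88.4%).

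In the longer genes, too, the Miwi ADH/- IP stood above the Miwi +/- IP. The median IP difference between Miwi ADH/- and Miwi +/- was 0.00 in the genes under 300 bases (0.00 in kept genes of that length), 0.59 from 300 to under 1000 bases (0.47) and 0.82 from 1000 to under 2000 bases (0.20). It was 0.62 in the 19 genes of 2000 to under 4000 bases (0.13) and 1.32 in the 4 longest (0.11). Among the genes of 300 to under 1000 bases 43 of 105 were at least 2-fold higher in the Miwi ADH/- IP, where 31.2% of kept genes of that length were, and among those of 1000 to under 2000 bases 27 of 64, where 17.6% were. Under 300 bases 10 of 35 genes were, where 31% of kept genes were, from 2000 to under 4000 bases 3 of 19, where 10.7% were, and of the longest 3 of 4, where 5.63% were. In the class of 300 to under 1000 bases, which holds the most genes, the median was therefore nearest to that of kept genes of the same length, apart from the shortest class.

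**Figure D5:**
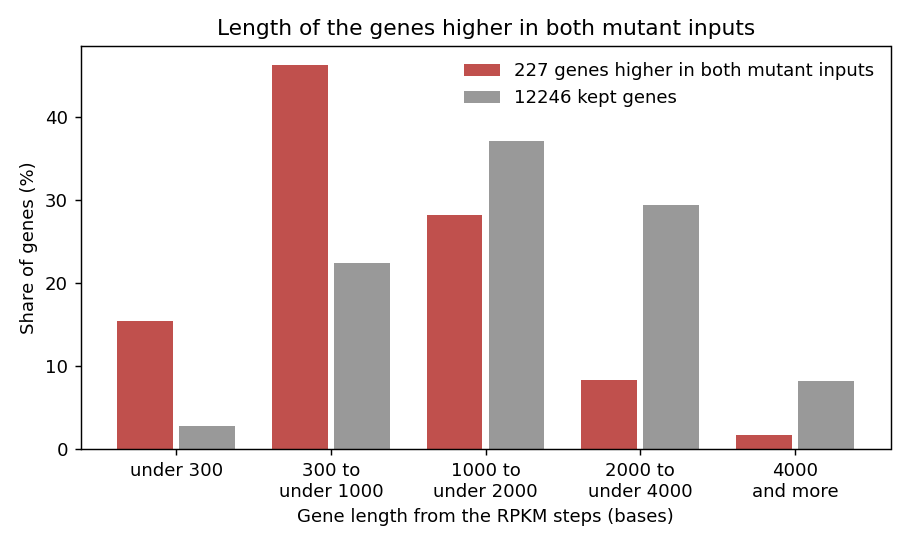
Share of genes, in percent, in 5 classes of gene length in bases, for the 227 genes beside the 12246 kept genes. The classes under 1000 bases hold 15.4% and 46.3% of the 227 genes, against 2.79% and 22.4% of the kept genes.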

How the data were processed

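RPKM values were computed by the authors and deposited in 6 columns, 1 for each genotype and fraction. The unit is written for the Miwi +/- columns only, per the file headers, and was assumed for the others. TopHat, Bowtie and the mm9 build are named, without version or role, per the submitters' processing notes. The sources used here do not give the counting tool, the annotation or any pooling of the 2 samples per group.

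The members and lists were chosen with earlier results of these data known. Differences are of log2(RPKM + 1), with a pseudocount of 1, which understates changes of low genes. The planned comparisons had no replicate columns to test. Reads were recovered as the smallest whole numbers that give a gene's values, within 0.002 reads plus 1e-07 of the read number, in 100.0% of values. Reads that share a divisor therefore come out too low, and the length too short with them, most often in genes with reads in few columns. Read totals and lengths hold up to a common factor, set where most lengths came out whole (a share of 0.795 of 600 checked, within 0.05 bases) and no column held more listed reads than its total. Ratio intervals are exact 95% Clopper-Pearson intervals conditional on the summed reads. PCR copies of 1 molecule are not independent, so these intervals cover counting error alone. The recovery was tested on simulated data.

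With no symbols, at most 2 genes a direction were named: those with the largest smaller input difference at 5 RPKM or more in both mutant inputs, the highest mean level in the mutant inputs, and the highest and lowest Miwi ADH/- minus Miwi +/- IP and Miwi +/- IP minus input differences at 5 RPKM or more in either column. The 4 genes on each side of the threshold are described without IDs. Python 3.11.15, NumPy 2.4.6, pandas 2.3.3, SciPy 1.17.1 and Matplotlib 3.10.9 were used.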

Additional observations from a re-analysis of the deposited data

How the results depend on the processing

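The number of genes in the set was 511 with a pseudocount of 0.1 and 125 when at least 5 RPKM was asked in 2 of 6 columns. It was 227 with no filter on low values and 285 relative to the median of all kept genes. It was 200 with median-of-ratios scaling (179 of the 227 among them) and 156 with equal RPKM sums. The 511 and the 285 hold all 227 genes, which was fixed in advance. A smaller pseudocount can only add genes, and so can subtracting input medians below 0 (-0.162 for Miwi ADH/- and -0.019 for Miwi -/-). The median IP difference of Miwi ADH/- minus Miwi +/-, 0.59, was above 0 in every alternative run: 0.38 relative to the median of all kept genes, 0.79 in genes with at least 5 RPKM in a mutant input, 0.97 in genes with at least 10 reads in the Miwi +/- input (chosen after the data were seen), 0.76 with a pseudocount of 0.1 and 0.46 with median-of-ratios scaling. The median of Miwi -/- minus Miwi +/-, -0.36, turned to 0.40 relative to the median of all kept genes, since that median is -0.77, and was 0.00 with median-of-ratios scaling, -0.76 with a pseudocount of 0.1, -0.57 in genes with at least 5 RPKM and -0.90 in genes with at least 10 reads in the Miwi +/- input. Of these alternative values for the number of genes and for both medians, 8 moved, 1 reversed and 7 did neither. Among those that moved were the 0.38, 0.79 and 0.97 for Miwi ADH/- minus Miwi +/-. Of 40 further values under these alternatives, 19 moved and 21 did not. A count moved if its share of the genes changed by over 1.5 times. A median moved if it left the 95% order-statistic interval of the median over the genes. No paired analysis was possible because each group has 1 column, which carries no replicate number, and leaving out a replicate could not be run for the same reason. Depth limits the 135 genes with fewer than 10 reads in the Miwi +/- input most, and with 1 column per group no statement on the genotypes beyond these libraries can be made.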
